A study of Mus musculus with 18 samples.

Results

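Replication-dependent histone genes encode the histones that package DNA as it is copied. Loci of an assembled mouse transcriptome were taken as members when their gene names held a symbol of the form Hist1h1c, Hist1h2bc, Hist2h3b or Hist4h4, that is a clustered H1, H2A, H2B, H3 or H4 gene. This name rule found 67 of 51499 loci, holding 69 histone genes. Of these, 63 loci held a single gene and are described below as 1-gene loci. The other 4 were merged with a neighbouring gene, so that their level cannot be split between the genes they hold.

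Mouse embryonic fibroblasts (MEFs) carrying or lacking Ago2, which encodes an Argonaute protein of small RNA silencing, were compared under endoplasmic reticulum (ER) stress. The 6 groups, of 3 libraries each, were labelled Ago2+/+ or Ago2-/- and had been given the solvent DMSO, tunicamycin, which blocks N-linked glycosylation, or thapsigargin at 500 nM, which blocks the calcium pump of the ER. According to the study's methods the lines came as gifts and were not authenticated, although the Ago2-/- line was tested for loss of the protein by western blot, the cells were in culture before the drugs were added, and further alleles or passages were not found in the labels or methods. The level used is an FPKM (a fragment count divided by transcript length and library size), pooled by the authors over the 3 libraries of a group, so that no value has an SD. The authors' own tests, which the same table holds, were not used, and without values per library no difference was tested here; the order of neighbouring levels carries no error.

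The labels of these groups went against the data, and group names are used below only as labels. The titles of the libraries called Ago2+/+ here name DCR1, not Ago2, and their genotype comes from the genotype and source labels, and the table's columns name DCR1 in the same way. In 4 of the 18 libraries the genotype labels contradict each other. Ago2 itself was not lowest by genotype: the Ago2+/+ labels had 22.1, 5.75 and 17 FPKM under DMSO, tunicamycin and thapsigargin, and the Ago2-/- labels had 5.61, 15.5 and 20.7. Whether these reads fall outside a deleted part of the gene is not known here. Ddx3y, a Y-linked gene, was at 23.3 FPKM in Ago2+/+ thapsigargin and 24.7 in Ago2-/- tunicamycin and was listed at 0 in the other 4 groups. The locus of Xist, the RNA that coats the inactive X chromosome, was at 46.6 FPKM in Ago2+/+ DMSO and 33.5 in Ago2-/- thapsigargin and at most 0.0574 elsewhere. Of the fibroblast markers, Vim lay between 952 and 2634 FPKM, Col1a1 ranged from 5.97 to 651, Dcn reached at most 1.06, and Thy1 was listed at 0 in every group; markers of blood, epithelial and endothelial cells summed to between 1.58 and 2.62 FPKM.

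Replication-dependent histone genes have no introns as a rule and are transcribed in S phase. Their mRNAs normally end, without a poly(A) tail, a few bases after a conserved stem-loop that is bound by the stem-loop binding protein SLBP, and an element downstream of it recruits the U7 small nuclear ribonucleoprotein that directs the cut. Some of them are also known to give polyadenylated forms, which use signals further downstream. Replacement variants such as H2A.Z and H3.3 are made outside S phase as well, from spliced, polyadenylated mRNAs. Neither the labels nor the methods say whether the libraries were selected for poly(A), and this bears on every level below.

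The stem-loop was looked for, on the transcript strand, as GGNNCT, a loop of 4 bases and AGNNCC, with all 6 pairs of the stem complementary, in the GENCODE M21 transcript models (build GRCm38). It followed the stop codon in 46 of the 69 genes, beginning between 21 and 58 bases after it. Of the 23 models without it, 17 ended within 50 bases of the stop codon. The next counts take genes with at least 100 annotated bases after the stop codon. Their first 100 bases held the stem-loop in 26 of 31 members (83.9%). They held it in 7 of 20178 genes whose names do not begin with Hist (0.0347%). Genes named Hist that are not members were in neither count. H2afx, an H2A variant gene that is known to give a stem-loop mRNA, was among those 7. The stem-loops of 8 of the 11 most abundant 1-gene loci are shown, since the annotated length after them differs between the loci that the results turn on. The stem is the same in all but the H4 genes Hist1h4i and Hist1h4n, which share another. The stem and loop are in capitals, with 5 bases on either side. Letters are those of the DNA strand that reads like the mRNA.

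Hist1h1c: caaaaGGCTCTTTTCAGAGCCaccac

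Hist1h4i: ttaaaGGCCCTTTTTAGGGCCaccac

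Hist1h2ao: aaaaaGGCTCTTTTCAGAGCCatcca

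Hist1h3g: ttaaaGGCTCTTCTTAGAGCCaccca

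Hist1h4n: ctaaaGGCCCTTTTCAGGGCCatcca

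Hist1h2ae: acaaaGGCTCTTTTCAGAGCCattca

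Hist1h2bj: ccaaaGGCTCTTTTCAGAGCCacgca

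Hist1h2bg: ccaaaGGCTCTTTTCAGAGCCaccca

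The form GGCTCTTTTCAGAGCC, as in Hist1h1c, was the most frequent, in 26 of the 46 genes, and the form of Hist1h4n was in 7. These windows lie on chromosome 13 of GRCm38, for Hist1h1c at chr13:23739507-23739532 on the plus strand, for Hist1h4i at chr13:22040961-22040986 on the minus strand, and for Hist1h2ao at chr13:21810893-21810918 on the plus strand. After the stem-loop the annotated transcript of Hist1h1c goes on for 840 bases and that of Hist1h4i for 330 bases. Those of Hist1h2bg and Hist1h2ae go on for 155 and 151 bases, and those of Hist1h3g, Hist1h4n, Hist1h2ao and Hist1h2bj for 47, 31, 31 and 23 bases. The model of Hist1h2bc is spliced, and Hist1h2bq has spliced models beside a short one of a single exon that ends at the stop codon; none of these holds the stem-loop, and the model of Hist1h4k ends without it.

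Histone mRNAs were scarce in these libraries. The median 1-gene locus had a mean of 0.513 FPKM over the 6 groups, and 34 of 63 were below 1 FPKM in every group. In 11 loci the mean reached 1 FPKM, which is 17.5% of the 63 loci beside 23.2% of all loci, and 4 loci were at 1 FPKM or more in all 6 groups. The 11929 loci of the whole table that reached a mean of 1 FPKM had a median of 16.1. Of the 11 histone loci that reached it, the middle one, Hist1h4k, had a mean of 1.67. Most loci of the whole table also had a mean below 1 FPKM, so 16.1 is not to be set against 0.513. At the low end, 12 histone loci were listed at 0 in at least 1 group, and no locus was listed at 0 in every group.

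**Figure D1:**
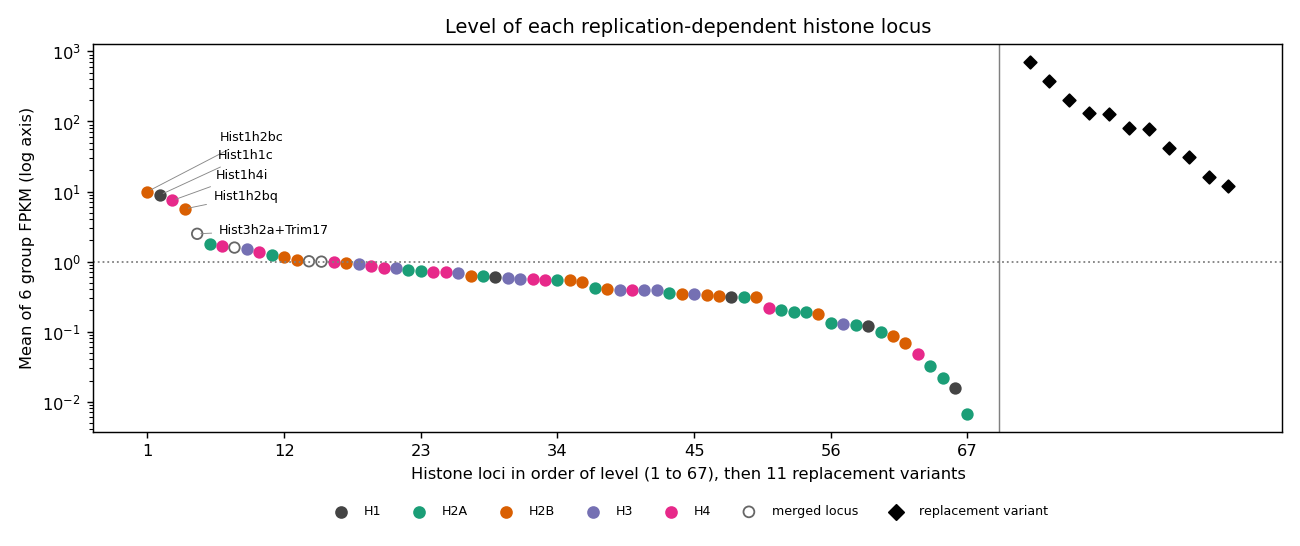
Mean FPKM over the 6 groups (log axis) of each of the 67 histone loci, in order of level and coloured by histone type, with open circles for merged loci and, right of the line, the 11 replacement variants as diamonds. Only 4 histone loci lie above 5 FPKM, while the replacement variants lie between 12 and 716 FPKM.

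The scarcity was shared by every histone type. Summed over its 1-gene loci, the linker histone H1 (5 loci) lay between 6.85 and 13.8 FPKM in the 6 groups, H2A (18 loci) between 4.60 and 10.9, H2B (16 loci) between 13.4 and 29.5, H3 (11 loci) between 5.40 and 9.5, and H4 (13 loci) between 10.5 and 22.9. The H2A loci include Hist1h2al and Hist1h2aj, which are annotated as pseudogenes. In Ago2+/+ DMSO and Ago2-/- thapsigargin, where the H2A sums were highest, Hist1h2al was at 2.93 and 1.62 FPKM and Hist1h2aj at 0 and 0.745. H2B was the highest type in all 6 groups, and H3 or H2A the lowest of the core types. A nucleosome holds the core histones in equal numbers, but that concerns protein and these are mRNA levels. The H2B sum came largely from Hist1h2bc and Hist1h2bq. They were at 13.3 and 11 FPKM of 29.5 in Ago2+/+ DMSO, and at 5.95 and 1.06 of 13.4 in Ago2+/+ tunicamycin. Almost all of the signal came from the large Hist1 cluster of chromosome 13, whose 54 loci summed to between 39.1 and 72.4 FPKM. The 7 loci of the Hist2 cluster on chromosome 3 summed to between 1.25 and 4.22 FPKM. The lone 1-gene loci of the Hist3 and Hist4 clusters, Hist3h2ba and Hist4h4, stayed at or below 0.222 and 0.0813 FPKM.

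The most abundant replacement variants stood far above these sums. H2afz, which encodes H2A.Z, was at 791, 748 and 768 FPKM in the Ago2+/+ groups under DMSO, tunicamycin and thapsigargin and at 675, 604 and 709 in the Ago2-/- groups, between 66.1 and 147 times the sum of the H2A loci of the same group. That sum counts the pseudogenes Hist1h2al and Hist1h2aj, which lowers the ratio. H3f3a and H3f3b, both of which encode H3.3, lay between 185 and 222 and between 340 and 446 FPKM, together 58.4 to 118 times the sum of the H3 loci. H1f0, the linker histone of resting cells, was at 183, 67.8 and 141 FPKM in the Ago2+/+ groups and at 74.6, 185 and 131 in the Ago2-/- groups, 9.89 to 17.6 times the sum of the H1 loci. H2afx, which encodes the variant phosphorylated at DNA breaks, lay between 68.3 and 90.5 FPKM. Not every variant was so high. H1fx, a further linker histone variant, lay between 9.48 and 22.6 FPKM, near the H1 sum. H2afy2, a macroH2A gene, lay between 4.49 and 25.4 FPKM. It was below Hist1h2bc in Ago2+/+ DMSO, Ago2+/+ tunicamycin, Ago2-/- DMSO and Ago2-/- thapsigargin. FPKM is scaled for length, so these levels are set side by side, with some reservations. A short transcript without a poly(A) tail may be captured less well. The fragment length correction of FPKM weighs most on short transcripts. In 33 of 63 histone loci over 50% of the 50-base stretches of the transcripts also occur in another gene, so that reads may be split. The part of each was not tested.

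The cells nevertheless held S phase mRNAs in quantity. Pcna, the sliding clamp of DNA polymerase, lay between 182 and 288 FPKM, and Mcm5, a subunit of the replicative helicase, between 117 and 156. Mki67, a marker of proliferating cells, lay between 56.2 and 75.4 FPKM. The 23 S phase and replication genes with a locus of their own all reached a mean of 1 FPKM, with a median of 85.7, and so did all 10 genes of G2 and mitosis, with a median of 72. Of the factors that transcribe, cut or degrade histone mRNA, 24 of 25 reached 1 FPKM, with a median of 32.1 over the 25, and Zfp473, a U7 ribonucleoprotein component, did not. Slbp was at 81.1, 45.5 and 61.5 FPKM in the Ago2+/+ groups and at 47.9, 66.8 and 81.4 in the Ago2-/- groups. Npat, the coactivator of histone genes in S phase, lay between 10.7 and 14.9 FPKM, and the histone chaperones (14 of 14 at 1 FPKM or more) had a median of 77.5. A few other RNAs that lack a poly(A) tail, listed after the values had been seen, were found at their own loci in 6 of 11 cases. They summed to between 11.3 and 76.5 FPKM. Of these Rny3 was at 53 FPKM in Ago2-/- DMSO and listed at 0 in Ago2+/+ DMSO, Ago2+/+ tunicamycin and Ago2-/- thapsigargin. Rny1 was listed at 0 in Ago2-/- thapsigargin and lay between 7.67 and 16 FPKM in the other groups. Terc, Scarna2 and Vaultrc5 had means below 1 FPKM. Rn7sk, an abundant nuclear RNA, lay between 4.41 and 10.4 FPKM.

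The loci above 5 FPKM were ones with an extended transcript model. Hist1h2bc and Hist1h2bq have spliced models, and Hist1h1c and Hist1h4i have at least 330 bases past the stem-loop. Across the 63 loci, genes with a model that is spliced or goes on for at least 100 bases past the stem-loop or, in Hist2h2be, far past the stop codon (24 loci) reached a mean of 1 FPKM in 6 cases and a highest mean of 9.98. The other 39 genes reached it in 5 cases, with a highest mean of 1.80. The medians did not follow this split, at 0.482 FPKM for the extended models and 0.513 for the others, so the extended models include both the most abundant loci and many that were near 0. The limit of 100 bases was chosen after the levels had been seen, and the split is a description without a test.

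**Figure D2:**
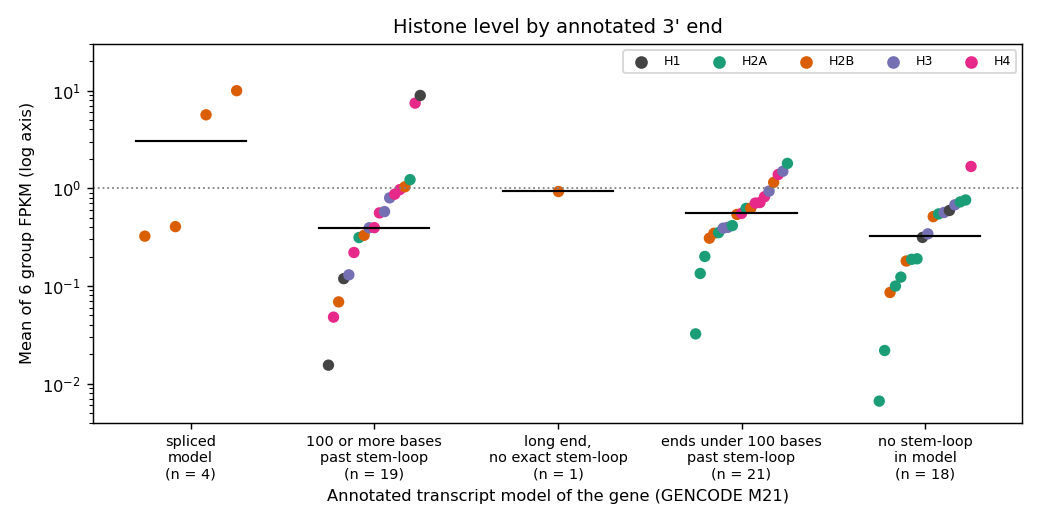
Mean FPKM over the 6 groups (log axis) of the 63 loci of a single histone gene, by the annotated 3′ end of the gene in GENCODE M21; points are loci coloured by type, short lines are medians and the dotted line is 1 FPKM. The 4 highest loci stand among the spliced models (median 3.03) and those with 100 or more bases past the stem-loop (median 0.395).

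The 11 loci whose mean reached 1 FPKM are given in order of level, with values under DMSO, tunicamycin and thapsigargin first for the groups labelled Ago2+/+ and then for those labelled Ago2-/-. Hist1h2bc (chr13:23684199-23692908), an H2B gene, was at 13.3, 5.95 and 10.1 FPKM and at 5.93, 12.1 and 12.5. The linker histone gene Hist1h1c (chr13:23738808-23740367) was at 9.39, 5.94 and 11.1 FPKM and at 6.67, 12.7 and 7.72. Hist1h4i (chr13:22040636-22041362), an H4 gene, was at 5.61, 4.02 and 12.8 FPKM and at 4.17, 11.4 and 6.65. All 3 of these genes had their lowest levels in Ago2+/+ tunicamycin and Ago2-/- DMSO, and Hist1h1c and Hist1h4i had their highest in Ago2+/+ thapsigargin and Ago2-/- tunicamycin.

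Hist1h2bq (chr13:21806612-21810197), a further H2B gene, was at 11, 1.06 and 6.38 FPKM and at 2.52, 3.62 and 9.34, the widest range of the 11 on the log2 scale of FPKM + 1 (2.54). Hist1h2ao (chr13:21810465-21810944), an H2A gene next to it, was at 2.82, 0.277 and 3.55 FPKM and at 0.397, 1.41 and 2.33, with a range of 1.83. Both were lowest in Ago2+/+ tunicamycin, with Ago2-/- DMSO next. These values are uncertain, because 97.3% of the 50-base stretches of the Hist1h2bq transcript also occur in Hist1h2br and 93.5% of those of Hist1h2ao in Hist1h2ap, and the authors' counting could split their reads. Hist1h2bq and Hist1h2br summed to 11.2, 1.82 and 6.38 FPKM and to 2.98, 3.69 and 9.82, and the order of the groups was that of Hist1h2bq alone.

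Hist1h4k, an H4 gene, was at 2.01, 0.498 and 1.82 FPKM and at 1.76, 2.36 and 1.58, so that Ago2+/+ tunicamycin alone lay below 1 FPKM. The H3 gene Hist1h3g was at 1.78, 1.44 and 0.754 FPKM and at 1.12, 1.15 and 2.71. Hist1h4n was at 1.36, 1.93 and 0.577 FPKM and at 1.88, 1.14 and 1.42. Unlike the loci above, Hist1h4n was highest in Ago2+/+ tunicamycin and Ago2-/- DMSO. The 50-base stretches shared with another gene came to 71.5% in Hist1h4k, 54.1% in Hist1h3g and 85.6% in Hist1h4n.

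Hist1h2ae, an H2A gene, was at 1.45, 0.751 and 1.26 FPKM and at 0.923, 1.10 and 1.87. Hist1h2bj, an H2B gene, was at 0.520, 0.416 and 2.70 FPKM and at 0.492, 2.42 and 0.350. It stood out by its pattern, with levels above 2 FPKM in Ago2+/+ thapsigargin and Ago2-/- tunicamycin and below 1 in the other 4 groups; those are the groups in which Ddx3y was found. Hist1h2bg was at 1.17, 1.26 and 0.695 FPKM and at 1.23, 0.491 and 1.37, with its lowest levels in that pair of groups. In Hist1h2bj 59.4% of the 50-base stretches also occur in Hist1h2bq, so that its reads may be split as well.

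**Figure D3:**
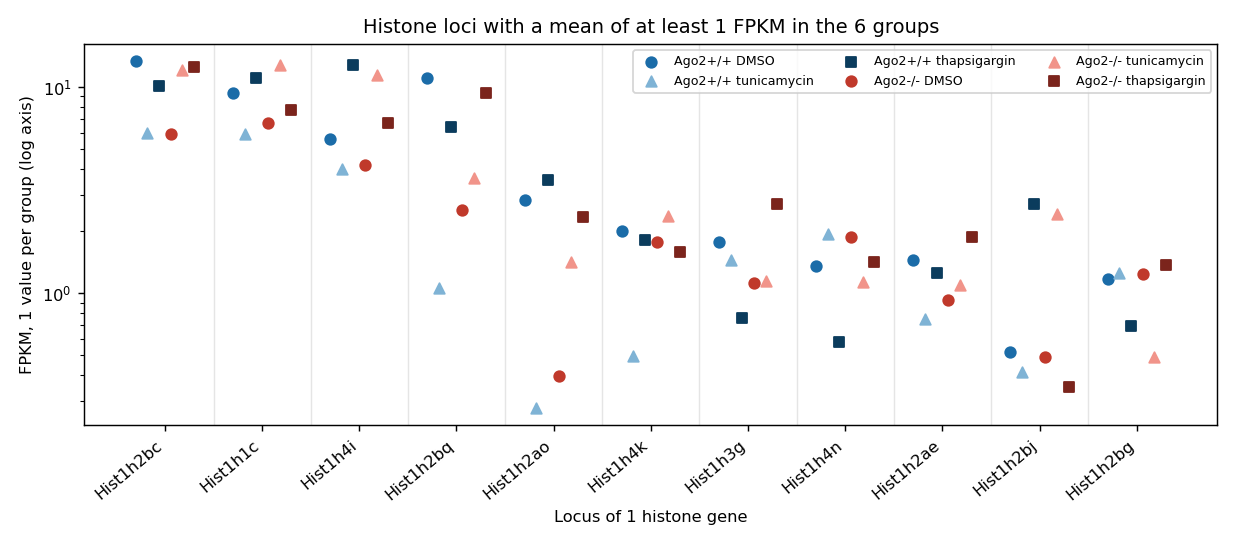
FPKM (log axis) of the 11 loci of a single histone gene whose mean reached 1 FPKM; each point is 1 pooled value of a group, with colours for the labelled genotype and markers for the treatment, and there are no error bars because values per library were not used here. Hist1h2bc, Hist1h2bq and Hist1h2ao are lowest in Ago2+/+ tunicamycin and Ago2-/- DMSO, and Hist1h2bj is highest in Ago2+/+ thapsigargin and Ago2-/- tunicamycin.

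The next 14 loci had means between 0.593 and 0.969 FPKM and are given in the same order of groups. Among the H4 genes, Hist1h4c was at 0.509, 0.789 and 1.58 FPKM and at 0.968, 0.831 and 1.14, while Hist1h4j was at 1.05, 0.661 and 0.797 FPKM and at 0.695, 0.752 and 1.26. Hist1h4h was at 1.70, 0.375 and 0.517 FPKM and at 0.792, 0.565 and 0.965. Both Hist1h4m, at 0.309, 0.269 and 2.09 FPKM and at 0.484, 0.254 and 0.887, and Hist1h4b, at 0.545, 0.308 and 1.32 FPKM and at 0.572, 0.669 and 0.814, were highest in Ago2+/+ thapsigargin. No order of the groups was common to these 5 H4 genes.

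Among the H3 genes, Hist1h3c was at 0.459, 0.335 and 1.51 FPKM and at 0.492, 2.26 and 0.557, with the pattern of Hist1h2bj. Hist2h3c2 was at 0.975, 0.675 and 0.434 FPKM and at 0.803, 0.565 and 1.34. Hist1h3i was at 0.884, 0.353 and 0.852 FPKM and at 0.233, 0.461 and 1.28. The H2B gene Hist1h2bf, at 0.341, 0.383 and 1.44 FPKM and at 0.0452, 1.48 and 0.0611, was again highest in Ago2+/+ thapsigargin and Ago2-/- tunicamycin. Hist2h2be, an H2B gene of the Hist2 cluster whose model goes far past the stop codon, was at 0.704, 1.48 and 0.552 FPKM and at 1.48, 0.713 and 0.709. Its highest levels were in the groups where Hist1h2bc and Hist1h2bq were lowest, Ago2+/+ tunicamycin and Ago2-/- DMSO.

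Of the remaining named loci, Hist1h2ai, an H2A gene, was at 1.39, 0.223 and 0.674 FPKM and at 0.262, 0.936 and 0.868. Hist1h2ab, a further H2A gene, was at 0.114, 1.21 and 0.630 FPKM and at 0.822, 0.686 and 0.272. The linker histone gene Hist1h1b varied least of the 25 named loci, at 0.646, 0.655 and 0.649 FPKM and at 0.5, 0.457 and 0.648. Hist1h2al was at 2.93 FPKM in Ago2+/+ DMSO and 1.62 in Ago2-/- thapsigargin and listed at 0 in the other 4 groups; these are the groups in which the Xist locus was found. It lies apart from the cluster at chr13:51202698-51203065 and is annotated as a processed pseudogene.

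The remaining 38 loci of a single gene had means between 0.00663 and 0.577 FPKM. In 5 of them a group reached 1 FPKM (Hist1h3d, Hist2h3b, Hist1h4a, Hist1h2bl and Hist1h2ad), with the highest value, 1.41 FPKM, in Hist2h3b. Among the lowest were the 3 members known as testis histones, named after their values were seen. Hist1h1t, the testis linker histone, was at most 0.0452 FPKM, Hist1h2ba, the testis H2B, at most 0.17, and Hist1h2aa, the testis H2A, was listed at 0 in 5 of the 6 groups.

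The merged loci were of the same low order. The locus of Hist3h2a and Trim17, a gene of the TRIM family, was at 2.44, 1.81 and 3.68 FPKM and at 1.65, 3.24 and 2.11, and what part belongs to the histone cannot be told. Hist2h2aa1 and Hist2h3c1, an H2A and an H3 gene of the Hist2 cluster, shared a locus at 1.62, 2.57 and 0.493 FPKM and at 1.38, 0.589 and 2.86. Hist1h1e and Hist1h2be, an H1 and an H2B gene, shared a locus at 1.05, 1.33 and 0.522 FPKM and at 1.24, 0.595 and 1.31. Both of these loci were lowest in Ago2+/+ thapsigargin and Ago2-/- tunicamycin. The last merged locus, Hist2h2bb with the annotated gene Gm42743 (chr3:96267075-96279001), which spans the same bases as the locus of Hist2h3b, was at 2.1, 0.711 and 0.517 FPKM and at 0.450, 0.343 and 1.86.

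Summed over all 63 loci of a single gene, the histone level was 72.4, 42.1 and 73.7 FPKM in the Ago2+/+ groups under DMSO, tunicamycin and thapsigargin and 46.1, 70.6 and 74.6 in the Ago2-/- groups. The sums of Ago2+/+ tunicamycin and Ago2-/- DMSO were thus the lowest and the other 4 lay close together. The 4 most abundant loci, Hist1h2bc, Hist1h1c, Hist1h4i and Hist1h2bq, accounted for 54.3%, 40.3% and 54.6% of the sum in the Ago2+/+ groups and for 41.8%, 56.5% and 48.5% in the Ago2-/- groups. The other 59 loci summed to 33.0, 25.1 and 33.4 FPKM and to 26.8, 30.7 and 38.4, so that the same groups were lowest there by a smaller margin. Over the 30 loci that shared at most 50% of their 50-base stretches with another gene, an alternative added after seeing the data, the sums were 40.4, 26.9 and 46.7 FPKM and 29.5, 48.2 and 42.9.

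**Figure D4:**
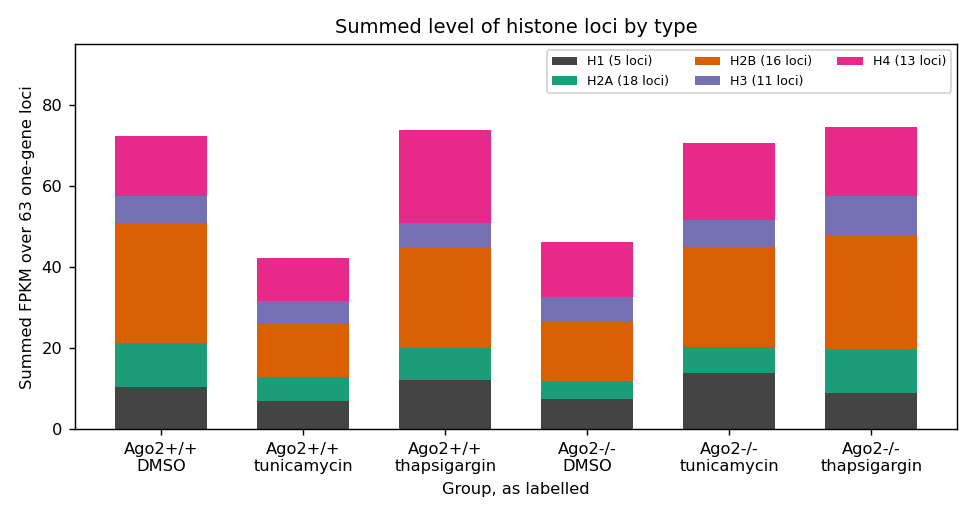
Summed FPKM of the 63 loci of a single histone gene in each group, stacked by histone type; each bar is a sum of pooled values without an error. Ago2+/+ tunicamycin (42.1) and Ago2-/- DMSO (46.1) are the lowest bars, and the other 4 lie between 70.6 and 74.6.

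Other genes moved with these sums. Ago2 and H1f0 were lowest in Ago2+/+ tunicamycin and Ago2-/- DMSO, as given above, and so was Slbp. Ccne2, a cyclin of the G1 to S transition, was at 26.1, 13.1 and 23.0 FPKM in the Ago2+/+ groups and at 13.2, 24.3 and 26.1 in the Ago2-/- groups. Pcna had the opposite order, with its highest levels of 276 and 288 FPKM in those groups. The part of these differences in the histone levels was not tested, and in libraries from whole cultures fewer cells in S phase and less histone mRNA per cell cannot be told apart.

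The design asks how each drug moved the cells away from DMSO within a labelled genotype, and how the labelled genotypes differed under the same treatment. A locus was counted as higher or lower when FPKM + 1 differed at least 2-fold between the groups, and loci needed a mean of 1 FPKM; adding 1 understates the difference of loci near that level. The mean includes the groups compared, and Hist1h2bj reached it only through Ago2+/+ thapsigargin and Ago2-/- tunicamycin, so that its place in the counts below partly follows from the filter and lends them no support. Most histone loci lie below the filter, and the median over all 63 loci is given beside each comparison. Adding 1 holds the ratios of such low loci near 0. Hist2h3b, for example, at 0.133 FPKM in Ago2-/- and 0.0392 in Ago2+/+ tunicamycin, had a log2 ratio of 0.12. The median over all 63 loci therefore cannot show whether the low loci followed the others. Both drug comparisons of a genotype share its DMSO group. Over the 11929 loci the median log2 ratio was within 0.026 of 0 in all 7 comparisons.

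Tunicamycin against DMSO in the groups labelled Ago2+/+ showed lower levels of the more abundant histone loci. Hist1h2bq (-2.54 on the log2 scale), Hist1h2ao (-1.58), Hist1h2bc (-1.04) and Hist1h4k (-1.01) were at least 2-fold lower, which is 36.4% of the 11 loci beside 6.32% of all loci. None of the 11 was 2-fold higher, beside 7.7% of all loci. The median of the 11 was -0.48, and 9 of 11 ratios were below 0. Over all 63 loci it was -0.0039. Below the filter Hist1h2ad was higher (1.2 against 0.0609 FPKM). The pseudogene Hist1h2al (0 against 2.93 FPKM) and Hist2h3b (0.0392 against 1.27 FPKM) were lower. These loci below the filter were named after their values were seen. Hist1h2bq and Hist1h2ao are loci whose reads may be split with a near copy. The Xist locus was at 0.0574 and 46.6 FPKM in these groups.

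Thapsigargin against DMSO in the groups labelled Ago2+/+ left the sum of the loci at 73.7 beside 72.4 FPKM. Hist1h2bj (1.29) and Hist1h4i (1.06) were at least 2-fold higher, beside 7.44% of all loci. Hist1h2bj passed the filter only through this thapsigargin group and Ago2-/- tunicamycin, which leaves Hist1h4i, 9.09% of the 11 loci. That is near the 7.44% of all loci. None of the 11 was 2-fold lower, beside 5.46% of all loci. The median was -0.12 (-0.016 over all 63 loci), with 7 of 11 ratios below 0, and Hist1h2bq and Hist1h3g had the lowest ratios, -0.70 and -0.66. These groups also differed by the presence of Y-linked mRNA, so that treatment and the source of the cells cannot be told apart.

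Tunicamycin against DMSO in the groups labelled Ago2-/- showed higher levels of several of the more abundant loci, mostly short of 2-fold. Hist1h4i (1.26) and Hist1h2bj (1.2) were at least 2-fold higher, beside 9.5% of all loci, and none of the 11 was 2-fold lower, beside 8.36%. Without Hist1h2bj, which needed this tunicamycin group to pass the filter, Hist1h4i is left, 9.09% of the 11 loci. That is near the 9.5% of all loci. Hist1h2bc (0.92), Hist1h1c (0.84) and Hist1h2ao (0.79) fell short of 2-fold. The median was 0.39 and 9 of 11 ratios were above 0. Both over the 55 loci whose mean reached 0.1 FPKM and over all 63 the median was -0.0037, too near 0 to give a direction. Whether the drug's ratio differed between the genotypes was not tested. Ddx3y again separated the groups compared.

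Thapsigargin against DMSO in the groups labelled Ago2-/- was highest for a pair of loci with near copies. Hist1h2bq (1.55) and Hist1h2ao (1.26) were at least 2-fold higher, beside 6.31% of all loci, and none of the 11 was 2-fold lower, beside 7.99%. Hist1h2bc (0.96) and Hist1h3g (0.81) came next. The median was 0.57 (0.12 over all 63 loci) and 8 of 11 ratios were above 0. The Xist locus was at 33.5 FPKM in the thapsigargin group and 0.0105 in the DMSO group.

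Between the labelled genotypes under DMSO, Hist1h2bq (-1.77), Hist1h2ao (-1.45) and Hist1h2bc (-1.05) were at least 2-fold lower in Ago2-/-, 27.3% of the 11 loci beside 6.38% of all loci. None of the 11 was 2-fold higher, beside 7.99%. The median was -0.35, and 9 of 11 ratios were below 0. It was -0.027 over 55 loci and 0.0049 over all 63, both too near 0 to give a direction. The sums were 46.1 FPKM in Ago2-/- and 72.4 in Ago2+/+, and the Xist locus was at 0.0105 and 46.6 FPKM.

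Under tunicamycin the labelled genotypes stood the other way round. Hist1h4i (1.31), Hist1h2bj (1.27), Hist1h4k (1.17) and Hist1h2bq (1.17) were at least 2-fold higher in Ago2-/-, beside 9.39% of all loci. Without Hist1h2bj, which needed this Ago2-/- group to pass the filter, the others are 27.3% of the 11 loci. None of the 11 was 2-fold lower, beside 7.92%. Hist1h1c (0.98), Hist1h2bc (0.92) and Hist1h2ao (0.92) were just short of 2-fold. The median was 0.92, the largest of the 7 comparisons over these 11 loci, and 0.034 over all 63. When merged loci were counted, that of Hist2h2aa1 and Hist2h3c1 was at least 2-fold lower (-1.17). Ddx3y was at 24.7 FPKM in the Ago2-/- group and listed at 0 in the other.

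Under thapsigargin the labelled genotypes differed in single loci. Hist1h3g (1.08) was at least 2-fold higher in Ago2-/-, beside 5.58% of all loci, and Hist1h2bj (-1.46) at least 2-fold lower, beside 8.19%. Hist1h2bj needed the Ago2+/+ group of this comparison to pass the filter. The merged locus of Hist2h2aa1 and Hist2h3c1 was higher (1.37). The median was 0.29, with 6 of 11 ratios above 0 and 5 below (0.076 over all 63 loci, and -0.091 over the 4 with a mean of at least 5 FPKM), and the sums were 74.6 FPKM in Ago2-/- and 73.7 in Ago2+/+. Ddx3y was found only in the second of these groups and the Xist locus above 1 FPKM only in the first.

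**Figure D5:**
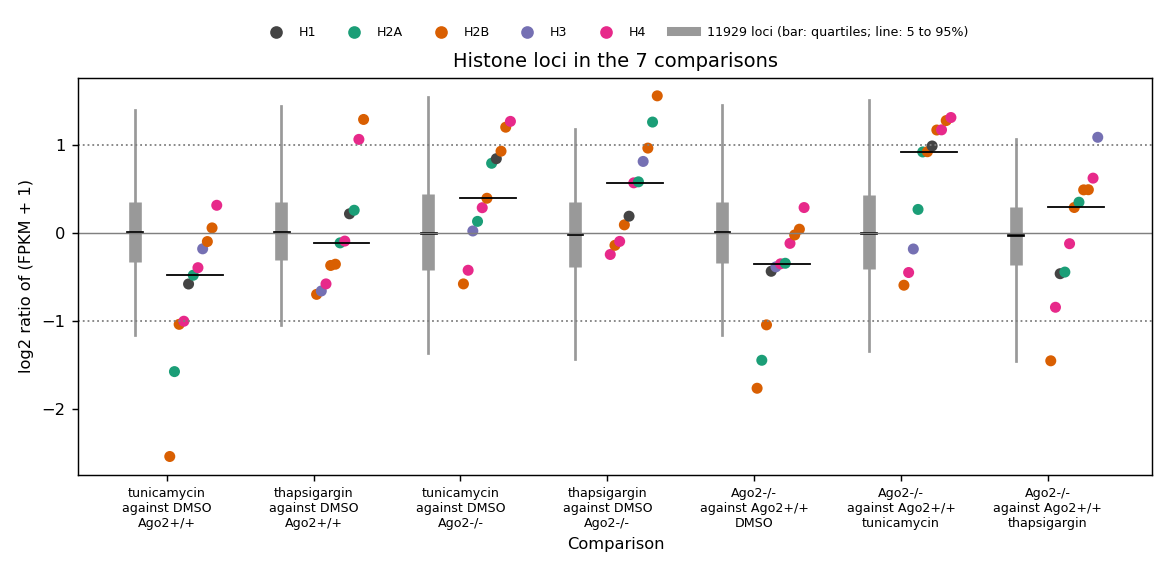
log2 ratio of FPKM + 1 in the 7 comparisons for the 11 loci of a single histone gene whose mean reached 1 FPKM (points coloured by type, long black lines their medians), beside all 11929 loci at that level (grey, with their median); dotted lines mark 2-fold. The median lies lowest for tunicamycin against DMSO in Ago2+/+ (-0.48) and highest for Ago2-/- against Ago2+/+ under tunicamycin (0.92).

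Across all 15 pairs of groups, the histone loci were most alike in pairs of unlike labels. Between Ago2+/+ tunicamycin and Ago2-/- DMSO the median absolute log2 ratio of the 11 loci was 0.13, with no locus 2-fold apart, beside 1.04% of all loci. Between Ago2+/+ DMSO and Ago2-/- thapsigargin it was 0.21, again with none, beside 1.87%, and between Ago2+/+ thapsigargin and Ago2-/- tunicamycin 0.25, with none, beside 0.998%. In the other 12 pairs it was 0.35 to 0.92, with 2 to 4 of the 11 loci 2-fold apart and between 12.9% and 17.9% of all loci. Of these, the pairs outside the 7 comparisons had 13.2% (Ago2+/+ DMSO and Ago2-/- tunicamycin), 14.1% (Ago2+/+ tunicamycin and Ago2-/- thapsigargin), 14.5% (Ago2-/- tunicamycin and Ago2-/- thapsigargin), 16% (Ago2+/+ tunicamycin and Ago2+/+ thapsigargin) and 16.5% (Ago2+/+ thapsigargin and Ago2-/- DMSO) of all loci 2-fold apart. Within the close pairs the ratios furthest from 0 were those of Hist1h4k for the first (-0.88), Hist1h3g for the second (-0.42) and Hist1h2ao for the third (0.92). The same 3 pairs were the closest over all loci, with median absolute ratios of 0.08, 0.15 and 0.11 in the same order.

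Genes tied to histone supply were set beside the histone loci in the same 7 comparisons, in which between 12.9% and 17.9% of all loci were 2-fold apart either way. Of the 24 processing and transcription factors, 1 was 2-fold apart in each of the 7 comparisons, with medians between -0.09 and 0.17. It was Cstf2t, a paralogue of a polyadenylation factor, in 5 of them, at 9.12, 22.3 and 23.9 FPKM in the Ago2+/+ groups and at 23.3, 26.3 and 7.13 in the Ago2-/- groups, and Cstf1, a subunit of the same complex, in the other 2. None of the 14 histone chaperones was 2-fold apart in any of the 7. Of the 11 replacement variants between 1 and 4 were. H1f0 was lower for tunicamycin in Ago2+/+ and for Ago2-/- under DMSO, where Cenpa, the centromeric H3, was lower too. For tunicamycin in Ago2-/- and for Ago2-/- under tunicamycin, H1f0, H1fx and H2afy2 were higher and H2afj, an H2A variant, was lower. H2afy2 was also higher for thapsigargin in Ago2+/+, H1fx and Cenpa were higher for thapsigargin in Ago2-/-, and under thapsigargin Ago2-/- had higher H2afj and lower H2afy2.

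The 23 S phase genes had 0 to 3 members 2-fold apart in a comparison, below the share over all loci in each, most often Cdk2, a cyclin-dependent kinase of S phase entry. Their median log2 ratio was -0.34 for tunicamycin and -0.05 for thapsigargin against DMSO in Ago2+/+, beside -0.48 and -0.12 for the histone loci. In Ago2-/- it was 0.32 and 0.52, beside 0.39 and 0.57. Between the labelled genotypes, in the order DMSO, tunicamycin and thapsigargin, it was -0.46, 0.30 and 0.03, beside -0.35, 0.92 and 0.29. None of the 10 genes of G2 and mitosis was 2-fold apart in these comparisons, with medians between -0.45 and 0.50. Whether the share of cells in S phase moved with the histone levels was not tested.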

How the data were processed

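The 18 RNA-seq libraries came from mouse embryonic fibroblasts in 6 groups of 3. Per the submitters' processing notes and the study's methods, the authors checked reads with FastQC 0.11.7, aligned them with HISAT2 2.1.0 to GRCm38, assembled transcripts with StringTie 1.3.4d guided by Ensembl release 91, and quantified loci with Cuffdiff 2.2.1. The deposited table has 772485 rows, 51499 loci in 15 pairs of groups, with 1 FPKM per locus and group made by the authors over the 3 libraries. It also holds the authors' log2 fold changes, test statistics, p-values and q-values, which were not used. Scaling between libraries, read selection and strandedness are not given in these sources. Steps of whole reads could not be recovered (28.6% to 37.2% of low values lay within 0.1 of a multiple, where 20% would without steps), so the depth is unknown and no counting interval is given. The fragment length correction of FPKM weighs most on short transcripts such as these.

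Groups were taken from sample titles, which name AGO2 or DCR1; those naming DCR1 were called Ago2+/+ after the genotype labels of their samples. The source label of replicate 2 of the 3 Ago2+/+ groups reads Ago2-/-, and the genotype label of replicate 3 of Ago2-/- DMSO reads Ago2+/+. Loci were matched by gene symbol, and merged loci were kept apart. Ratios are log2 of (FPKM + 1), for loci whose mean over the groups reached 1 FPKM, counted at 2-fold; no test was run here, since the table gives 1 pooled value per group and the authors' tests were left aside. All 69 symbols matched GENCODE M21 (GRCm38), a later annotation, and 57 of 63 1-gene loci had its gene ends; shared sequence was counted in 50-base stretches. The genes named with all 6 values were the 25 1-gene loci with the highest means, which include the 5 with the widest range among those at 1 FPKM or more, and the merged loci. Members and gene lists were chosen with earlier results of these data known. Lists were histone mRNA processing (26 genes, 25 at a locus of their own), replacement variants (11 of 11), histone chaperones (14 of 15), S phase (23 of 25), G2 and mitosis (10 of 10), cell type markers and RNAs without a poly(A) tail. Alternatives were another pseudocount, filter, fold or set of loci, and centring. Python 3.11.15 with pandas 2.3.3, numpy 2.4.6 and matplotlib 3.10.9 was used, and the counting code was tested on simulated data.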

Additional observations from a re-analysis of the deposited data

How the results depend on the processing

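The values have no replicate error, so an alternative could only be set against the reported count or median. Centring on the median of all loci moved none of the 14 counts and medians by over 1.5 times, and counting the merged loci (14 loci) moved 1 median, to -0.24 for thapsigargin in Ago2+/+. With a pseudocount of 0.1 the loci 2-fold apart became 4 for thapsigargin in Ago2+/+, 5 for tunicamycin and 4 for thapsigargin in Ago2-/-, and 8 for the genotypes under tunicamycin. At 1.5-fold these counts were also 4, 5, 4 and 8, and that for the genotypes under thapsigargin was 4. At 4-fold 1 locus, Hist1h2bq, was left for tunicamycin in Ago2+/+ and 0 in the other 6 comparisons. The share of all loci was not counted at these settings. These counts therefore cannot be set against the 2-fold shares given above.

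The filter on low values moved most results. With a mean of at least 0.1 FPKM (55 loci) and with no filter (63 loci) the counts were 7 and 7 for tunicamycin and 5 and 5 for thapsigargin in Ago2+/+, 5 and 5 for tunicamycin in Ago2-/-, and 4 and 4 for the genotypes under thapsigargin. Under these filters the medians were -0.043 and -0.0039 for tunicamycin in Ago2+/+, 0.18 and 0.12 for thapsigargin in Ago2-/-, 0.076 and 0.034 for the genotypes under tunicamycin, and 0.16 and 0.076 for the genotypes under thapsigargin. With no filter the median for thapsigargin in Ago2+/+ was -0.016. The sign changed in 2 cases, at values too near 0 to give a direction. Tunicamycin in Ago2-/- came to -0.0037 under both filters. The genotypes under DMSO, at -0.027 with the minimum of 0.1, came to 0.0049 with none. At a mean of 5 FPKM (4 loci) the counts were 2 for tunicamycin in Ago2+/+, 1 for thapsigargin in Ago2+/+, 1 for each drug in Ago2-/-, 2 for the genotypes under tunicamycin and 0 under thapsigargin. Their medians were -0.81 for tunicamycin in Ago2+/+, 0.88 for tunicamycin in Ago2-/- and -0.74 for the genotypes under DMSO, and that for the genotypes under thapsigargin turned to -0.091. Adding 1 holds the ratios of low loci near 0, and what else moved these results was not tested. The share of all loci under these filters was not counted either, so the counts have no share beside them.

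No paired analysis was possible because the table used holds 1 pooled value per group. No library was left out for the same reason, the 4 with conflicting labels included. Depth is unknown, near-identical copies limit which gene a read is given to, and a level near 0 is not shown to be absence.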
